A study of Rattus norvegicus with 2 samples.

Results

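The retinoid uptake and metabolism genes examined here were *Stra6*, *Rdh10*, *Dhrs3*, *Aldh1a1*, *Aldh1a2*, *Crabp1*, *Crabp2*, *Rarb* and *Cyp26b1*, 9 of the 32883 genes listed in both libraries, and they were chosen by name. They were followed across cell types of the rat hypothalamus, with tanycytes as the main cell type. Hypothalamic tissue with the AVPV and the ARC was taken from female Sprague Dawley rats at PND 29, dissociated and sequenced as single cells by a droplet-based 3′ method. SC300 rats had received a silicone capsule with 300 µg estradiol benzoate (EB) at PND 0.5. Control rats are named intact in the sample labels and received a capsule with oil alone according to the methods. Each group is represented by 1 library, made from the pooled tissue of 3 rats, so no test between Control and SC300 was possible, and the pooled rats cannot be told apart. Levels are counts of unique molecular identifiers (UMIs, one tag per captured RNA molecule) summed over the cells of a type and scaled to counts per 1e6 UMIs of that type (CPM). All intervals are exact 95% intervals and cover counting error only.

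Retinol circulates bound to a plasma carrier and enters cells through the membrane receptor STRA6. Inside the cell it is oxidized to retinal by RDH10 and reduced back to retinol by DHRS3. The retinal dehydrogenases ALDH1A1 and ALDH1A2 form retinoic acid irreversibly, which CRABP1 and CRABP2 bind in the cytosol, nuclear receptors such as RARB read, and CYP26 enzymes break down. Tanycytes are the elongated cells that line the floor of the third ventricle, and they are known as a site of retinoid handling in the hypothalamus.

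Of the 9 genes, 8 had an entry among the RefSeq promoters of the rat build GRCr8, which span 250 bases before to 50 bases after each annotated start. *Rdh10* was not analysed here for sequence. For *Aldh1a1* and *Stra6* the 250 bases before the start, without those after it, are shown because both genes were lower in SC300 tanycytes. Stretches of *Rarb* and of the retinoic acid hydroxylase *Cyp26a1* are shown because of the genes examined only these carried a repeat of the hexamers bound by retinoic acid receptors. Counted from the start, the *Rarb* stretch lies after it, at bases 19 to 47, and the *Cyp26a1* stretch before it, at bases -98 to -70. The capitals mark the hexamer AGGTCA or its variants, which were AGTTCA, also GGGTCA and also GGTTCA, or their reverse complements, and the sequences are written 5′ to 3′ on the strand of the gene, which was the plus strand for all 4. The *Aldh1a1* stretch lies at chr1:227537370-227537619, *Stra6* at chr8:67444507-67444756, *Rarb* at chr15:11336410-11336438 and *Cyp26a1* at chr1:244883724-244883752.
Aldh1a1: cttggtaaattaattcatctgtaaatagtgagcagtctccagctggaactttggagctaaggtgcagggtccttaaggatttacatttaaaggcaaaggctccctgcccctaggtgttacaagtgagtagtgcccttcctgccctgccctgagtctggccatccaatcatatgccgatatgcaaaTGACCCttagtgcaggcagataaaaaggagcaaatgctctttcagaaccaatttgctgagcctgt
Stra6: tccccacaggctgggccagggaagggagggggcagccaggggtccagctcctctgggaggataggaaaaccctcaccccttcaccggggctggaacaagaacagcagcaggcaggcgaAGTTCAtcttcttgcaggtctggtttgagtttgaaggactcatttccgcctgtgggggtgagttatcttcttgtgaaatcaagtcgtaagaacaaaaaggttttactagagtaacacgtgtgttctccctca
Rarb: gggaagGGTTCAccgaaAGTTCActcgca
Cyp26a1: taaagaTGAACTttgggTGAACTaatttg
At least 1 such hexamer on either strand was found in 44.4% of 33469 promoters and in 3 of the 8 genes, *Aldh1a1*, *Stra6* and *Rarb*, so a single match is common. A direct repeat of these hexamers with 5 bases between was found in 128 promoters (0.382%), among them *Rarb*. Direct repeats with 1 or 2 bases between were found in 0.233% and 0.170% of promoters and in none of the 8 genes. A match describes letters in this window and was not tested as a binding site.

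The libraries held 4296 Control and 4379 SC300 cells with at least 200 detected genes, and 51382276 and 56390355 UMIs. Cells were called tanycytes when at least 3 of *Crym*, *Lhx2*, *Calml4*, *Ppp1r1b* and *Rax* had a UMI and *Snap25*, a neuronal gene, had under 2 UMIs. This gave 307 Control tanycytes (7.15% of cells, interval 6.39 to 7.96%) and 189 SC300 tanycytes (4.32%, interval 3.73 to 4.96%). The median depth of these cells was 10886 and 12279 UMIs. Fewer cells of a type in a library and poorer recovery of that type cannot be told apart. The genes of the gate themselves differed between the libraries. *Crym*, which encodes a thyroid hormone-binding protein, stood in tanycytes at 1755 (Control) and 2671 (SC300) CPM, 1.52-fold higher in SC300, and *Ppp1r1b*, the DARPP-32 gene, at 807 and 432 CPM, 1.87-fold lower. Their part in the number of gated cells and in the differences below was not tested. *Vim*, an intermediate filament gene that the gate did not use, stood at 3475 and 2735 CPM in tanycytes and 111 and 92.0 CPM in astrocytes, but at 3733 and 3629 CPM in ependymal cells, so it does not set the gated cells apart from ependymal cells. *Rax*, the homeobox gene that defines tanycytes, was sparse, with 18 UMIs in each library, in 5.86% and 7.41% of tanycytes. The gate also admitted cells with ependymal genes. Its gene *Calml4* stood at 310 and 329 CPM in tanycytes and 401 and 414 CPM in ependymal cells. *Ppp1r1b* had a UMI in 81% and 80% of ependymal cells, although its CPM, like that of *Crym*, *Lhx2* and *Rax*, was lower there than in tanycytes. Tanycytes took precedence, so the 48 and 40 ependymal cells are those that did not reach the tanycyte gate. Of the tanycytes, 234 in Control and 156 in SC300 carried at least 3 markers of ependymal cells, and the 4 listed ependymal markers summed to 2794 and 2594 CPM, none at 0. Among the 5 astrocyte markers, which also had none at 0, the sum was 514 and 687 CPM. Endothelial markers summed to 96.6 and 35.1 CPM and markers of mature oligodendrocytes to 58.8 and 24.7 CPM. Of the 5 neuronal markers, summing to 118 and 99.6 CPM, 1 was at 0 in SC300. The 5 microglial markers summed to 1.84 and 2.24 CPM, with 2 and 1 of them at 0. The 2 libraries shared 9 barcode sequences, none of them carried by a tanycyte.

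Among the cell types, the 9 genes fell into groups by where they were found. *Stra6*, *Aldh1a1* and *Rdh10* were at least 2-fold higher in tanycytes than in the other gated types together in both libraries, as were 11.1% of the 13972 genes with at least 50 UMIs. The margin was 35.7-fold and 23.1-fold for *Stra6* in Control and SC300, and 14.3-fold and 2.63-fold for *Aldh1a1*. Without the tanycytes that also reached another gate, the SC300 log2 ratio of *Aldh1a1* was -0.011, with a wide interval of -3.06 to 1.85. *Dhrs3* was highest in endothelial cells, and tanycytes ranked 8 of 14 types in Control and 7 of 14 in SC300, below mural cells, macrophages, astrocytes, stromal cells and ependymal cells in both. *Crabp1* was found in neurons, and *Aldh1a2*, *Crabp2* and *Cyp26b1* were highest in the stromal cells of SC300. *Rarb* was scattered over stromal, mural and GABAergic cells. Levels are compared within a gene only, because capture of 3′ ends differs between genes.

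**Figure D1:**
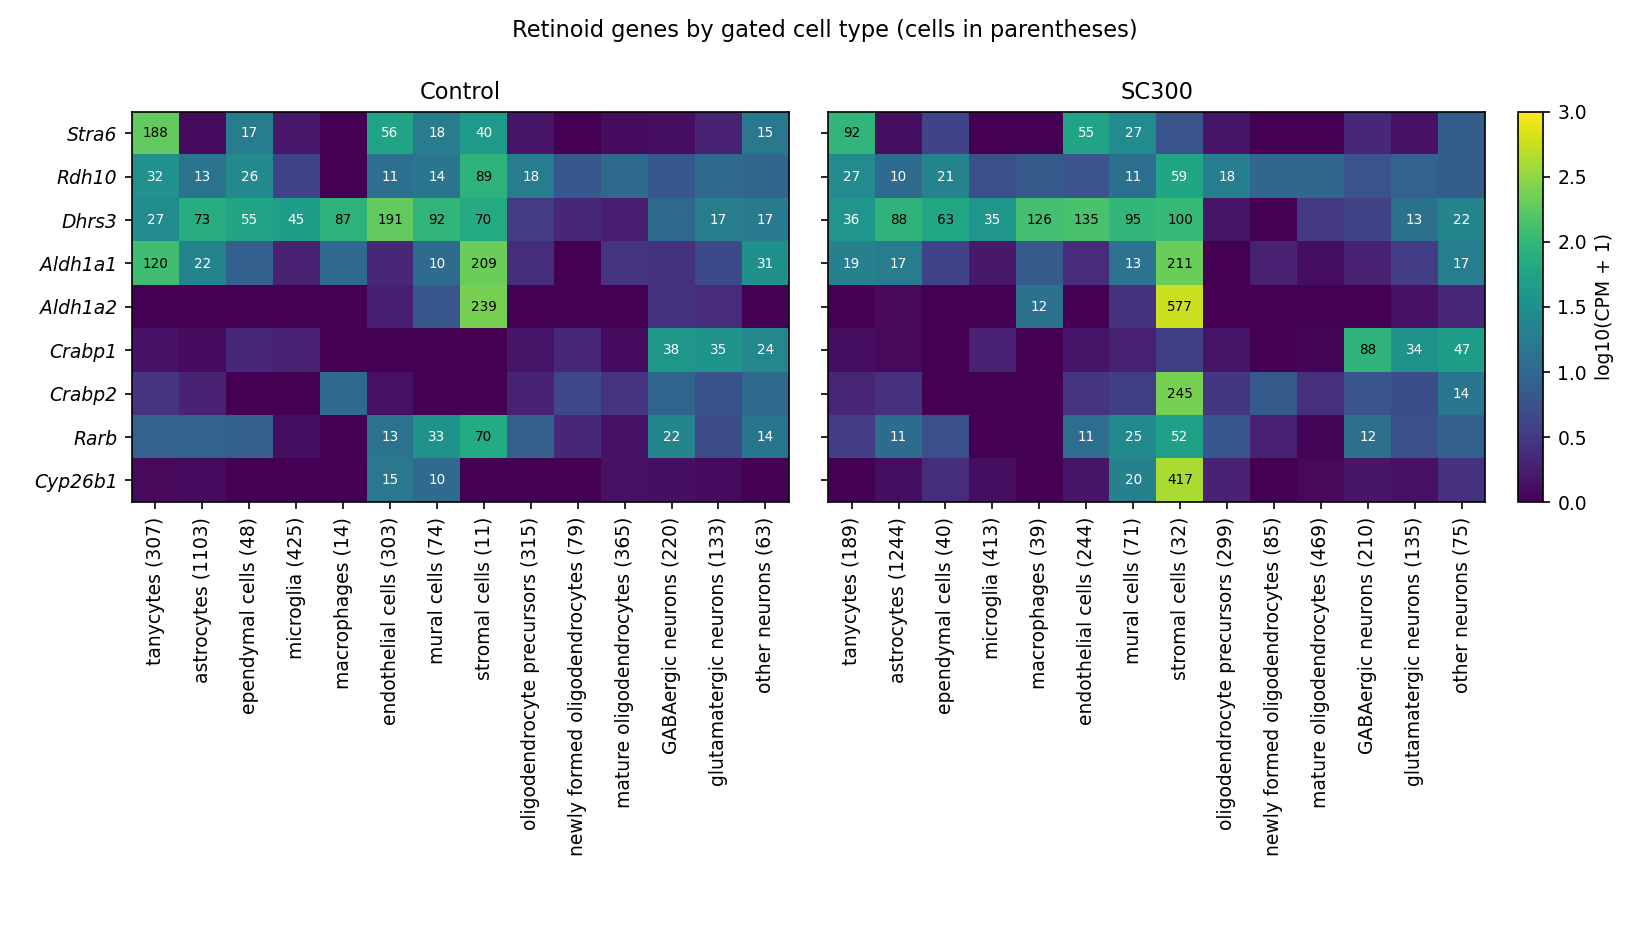
Level of the 9 retinoid genes (rows) in each gated cell type (columns, number of cells in parentheses) in the Control and SC300 libraries. Colour is log10(CPM + 1), and CPM values of 10 or more are printed. *Stra6* stood at 188 CPM in Control and 92.3 CPM in SC300 tanycytes, and *Aldh1a1* at 120 and 19.4 CPM.

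*Stra6*, the retinol receptor of the cell membrane, had a larger share of its UMIs in tanycytes than the other 8 genes in both libraries. In Control, 917 of its 1245 UMIs (73.7%) came from tanycytes, at 188 CPM (interval 176 to 201), and in SC300 329 of 665 (49.5%), at 92.3 CPM (interval 82.6 to 103). The level in SC300 tanycytes was thus 2.04-fold lower, a log2 ratio of -1.03 (interval -1.21 to -0.84). A *Stra6* UMI was seen in 217 Control tanycytes (70.7%, interval 65.3 to 75.7%) and in 93 SC300 tanycytes (49.2%, interval 41.9 to 56.6%). Free RNA can give UMIs in cells that do not express a gene, and its level was read from microglia (median depth 7602 and 8040 UMIs) and mature oligodendrocytes (19921 and 20607 UMIs). Microglia showed a *Stra6* UMI in 0.471% of Control and 0 of 413 SC300 cells. Mature oligodendrocytes showed it in 0.548% of Control and 0 of 469 SC300 cells. Endothelial cells, which carry STRA6 at blood-tissue barriers, ranked next among types with over 100 cells. Their levels were 55.7 and 54.9 CPM, with a log2 ratio of -0.02 (interval -0.39 to 0.35). Endothelial markers in the tanycyte gate were lower in SC300, as given above, and their part in the *Stra6* difference was not tested. The tanycyte level exceeded that of endothelial cells in both libraries. In ependymal cells *Stra6* had 14 UMIs in Control (17.3 CPM) and 2 in SC300 (2.98 CPM), and the mural intervals of 17.7 and 27.0 CPM overlapped between libraries. The gated neurons with neither GABAergic nor glutamatergic assignment were also lower in SC300, with 24 and 12 UMIs (14.9 and 6.69 CPM). Their log2 ratio was -1.16 (interval -2.29 to -0.10).

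Tanycytes with many *Stra6* UMIs were fewer in SC300. Control held 76 tanycytes with 5 or more *Stra6* UMIs, 95 with 2 to 4, 46 with 1 and 90 with none. SC300 held 17, 50, 26 and 96 in the same order. The most in a single cell was 17 UMIs in Control and 29 in SC300, and the 3 highest cells held 5.34% and 21.0% of the tanycyte total. When each cell was thinned to 2000 UMIs, the share with a *Stra6* UMI was 40.0% of 300 Control and 14.9% of 188 SC300 tanycytes.

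**Figure D2:**
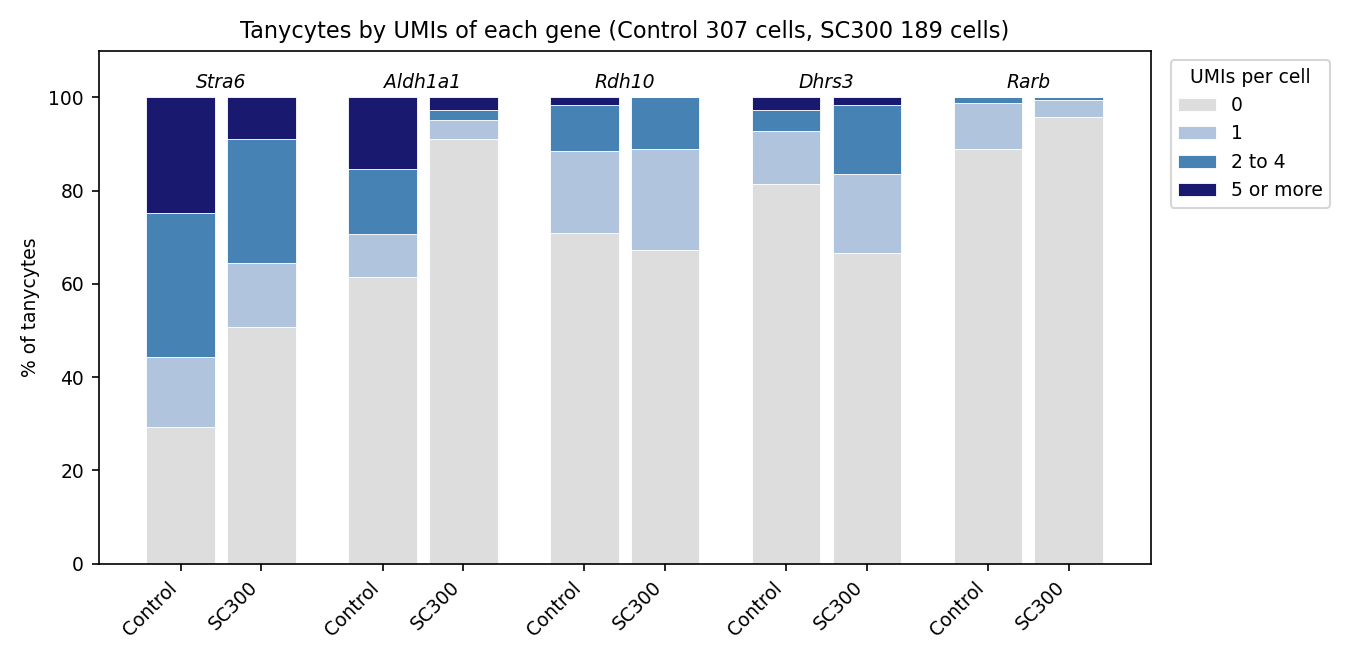
Percent of tanycytes with 0, 1, 2 to 4 or 5 and more UMIs of 5 retinoid genes in Control (307 cells) and SC300 (189 cells). Cells without an *Aldh1a1* UMI number 189 in Control and 172 in SC300, so the grey part of that bar takes up most of the SC300 cells.

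*Aldh1a1*, the retinal dehydrogenase known from the adult brain, showed the largest difference of the members with at least 50 tanycyte UMIs. Control tanycytes held 587 UMIs, 120 CPM (interval 111 to 130), and SC300 tanycytes 69 UMIs, 19.4 CPM (interval 15.1 to 24.5). The level was 6.22-fold lower in SC300, a log2 ratio of -2.64 (interval -3.02 to -2.27). A UMI was seen in 118 Control tanycytes (38.4%, interval 33.0 to 44.1%) and 17 SC300 tanycytes (8.99%, interval 5.33 to 14.0%), against 0.706% and 0.484% of microglia. At 2000 UMIs per cell the shares were 17% and 1.60%, the latter being 3 of 188 cells. The remaining SC300 signal was concentrated, since 3 cells held 59.4% of its UMIs, compared with 10.7% in Control. Without the 3 highest cells of each library the log2 ratio was -3.77. Of all *Aldh1a1* UMIs, tanycytes held 59.5% in Control and 14.6% in SC300.

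In the other cell types with at least 20 *Aldh1a1* UMIs the libraries lay closer together, which was not tested as a difference between types. Astrocytes stood at 21.6 and 17.2 CPM, with a log2 ratio of -0.33 (interval -0.63 to -0.02). Stromal cells, which were few (11 and 32 cells), stood at 209 and 211 CPM. The gated neurons with neither GABAergic nor glutamatergic assignment, 63 and 75 cells, stood at 31.0 and 17.3 CPM, with 80.0% and 80.6% of those UMIs in 3 cells. Their log2 ratio was -0.84 (interval -1.54 to -0.17). Under the limit of 20 UMIs, ependymal cells had 6 and 2 UMIs (7.40 and 2.98 CPM) and mature oligodendrocytes 15 and 3 (1.92 and 0.281 CPM). Endothelial cells had 3 in each library (1.23 and 1.40 CPM). In the order of levels, Control tanycytes ranked below stromal cells with overlapping intervals and above every other gated type without overlap. In SC300 the tanycyte interval overlapped those of astrocytes, of those other neurons, of mural cells and of macrophages. *Aldh1a2*, a second retinal dehydrogenase known from the meninges, had 0 UMIs in 307 Control and 189 SC300 tanycytes, which allows at most 0.756 and 1.03 CPM (upper limits of the Poisson intervals). It was found in stromal cells, with 24 UMIs in 5 of 11 Control cells (239 CPM) and 224 UMIs in 24 of 32 SC300 cells (577 CPM). The third enzyme of the group, *Aldh1a3*, had 0 and 1 UMIs in tanycytes.

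The retinol dehydrogenase *Rdh10* and the retinal reductase *Dhrs3* act in opposite directions. *Rdh10* stood at 32.0 CPM in Control tanycytes (156 UMIs, interval 27.2 to 37.4) and 26.9 CPM in SC300 (96 UMIs, interval 21.8 to 32.9). The intervals overlapped, and the log2 ratio was -0.25 (interval -0.63 to 0.13). A UMI was seen in 29% and 32.8% of tanycytes, against 2.35% and 3.63% of microglia and 17.3% and 16% of the more deeply sequenced mature oligodendrocytes. *Rdh10* was 3.11-fold and 2.97-fold higher in tanycytes than in the other gated types together. Ependymal cells, at 25.9 and 20.9 CPM, were close to tanycytes, and stromal cells were higher at 89.4 and 59.3 CPM, from 9 and 23 UMIs.

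*Dhrs3* was somewhat higher in SC300 tanycytes. It stood at 26.9 CPM in Control (131 UMIs, interval 22.5 to 31.9) and 35.6 CPM in SC300 (127 UMIs, interval 29.7 to 42.4), 1.33-fold higher, with a log2 ratio of 0.41 (interval 0.04 to 0.77). A UMI was seen in 57 Control tanycytes (18.6%, interval 14.4 to 23.4%) and 63 SC300 tanycytes (33.3%, interval 26.7 to 40.5%), and at 2000 UMIs per cell in 4.67% and 8.51%. Tanycytes were not the main site of *Dhrs3*. Endothelial cells were highest among types with over 100 cells, at 191 CPM in Control (interval 174 to 209) and 135 CPM in SC300 (interval 120 to 152). Astrocytes stood at 72.9 and 88.3 CPM, mural cells at 92.3 and 94.8 CPM, and microglia at 45.3 and 35.2 CPM. In GABAergic neurons *Dhrs3* was 3.07-fold lower in SC300, at 9.63 and 3.13 CPM. Mature oligodendrocytes had a UMI in 1.10% and 2.99% of cells at their greater depth. In the tanycyte gate, endothelial markers summed to 96.6 and 35.1 CPM, lower in SC300. Astrocyte markers summed to 514 and 687 CPM there, higher in SC300. The part of either in the *Dhrs3* difference was not tested.

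The cytosolic binding proteins of retinoic acid were near the floor in tanycytes. *Crabp1* had 2 UMIs in Control and 1 in SC300, and *Crabp2* 9 and 4 UMIs, with shares of tanycytes of 2.61% and 2.12% that did not exceed those of mature oligodendrocytes (3.84% and 3.62%). *Crabp1* was a neuronal gene here. GABAergic neurons held 238 Control UMIs (37.6 CPM) and 505 SC300 UMIs (87.9 CPM), with a log2 ratio of 1.23 (interval 1.00 to 1.46). The UMIs sat in few cells, in 27 of 220 Control and 44 of 210 SC300 GABAergic neurons, and the 3 highest cells held 50.8% and 26.9%. Glutamatergic neurons stood at 35.1 and 34.1 CPM, and the difference between both kinds of neuron was not tested. *Crabp2* stood at 8.21 and 5.22 CPM in GABAergic neurons, with a log2 ratio of -0.65 (interval -1.35 to 0.02). In stromal cells *Crabp2* had 0 UMIs in 11 Control cells and 95 UMIs in 9 of 32 SC300 cells, of which 3 cells held 65.3%.

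*Rarb*, which encodes retinoic acid receptor beta and is itself induced by retinoic acid, was sparse in tanycytes. Control held 39 UMIs (7.99 CPM, interval 5.69 to 10.9) and SC300 9 UMIs (2.52 CPM, interval 1.15 to 4.79). The log2 ratio was -1.66 (interval -2.89 to -0.59), from fewer than 50 UMIs in all. A UMI was seen in 34 Control tanycytes (11.1%) and 8 SC300 tanycytes (4.23%), against 0.235% of Control microglia and 0 of 413 SC300 microglia. *Rarb* was also lower in SC300 GABAergic neurons, with 140 UMIs (22.1 CPM) against 68 UMIs (11.8 CPM) and a log2 ratio of -0.90 (interval -1.34 to -0.47). Astrocytes stood at 7.92 and 10.6 CPM with an interval of the log2 ratio from -0.03 to 0.87, and mural cells at 32.6 and 25.2 CPM. *Cyp26b1*, which encodes a hydroxylase that removes retinoic acid, had 1 UMI in Control and 0 in SC300 tanycytes. Single cells held a large part of its counts. In Control, 1 barcode that reached no gate held 73 of all 137 UMIs. In SC300, stromal cells held 162 of 204 UMIs, and 1 of these cells held 63. Endothelial cells held 36 *Cyp26b1* UMIs in 7 cells in Control and 1 UMI in SC300.

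**Figure D3:**
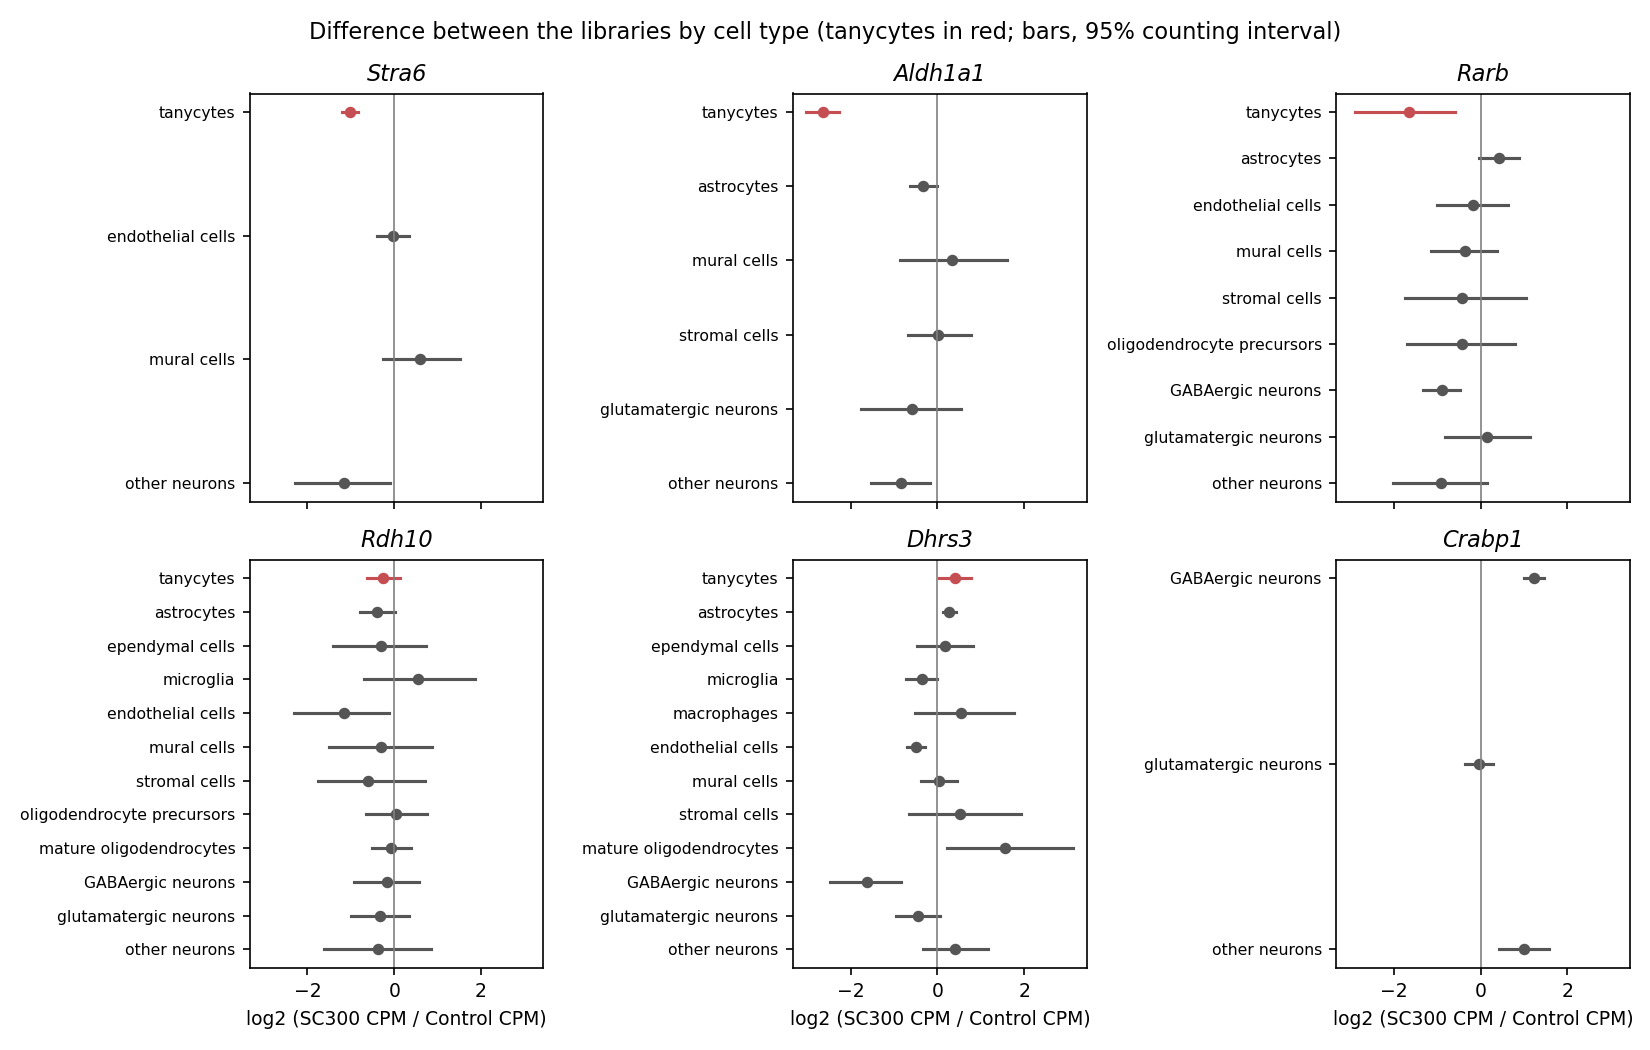
Log2 ratio of SC300 over Control CPM for 6 of the genes in each cell type with at least 20 UMIs in both libraries together, with the exact 95% interval as bars and tanycytes in red. *Stra6* lies at -1.03 in tanycytes and -0.02 in endothelial cells, and *Crabp1* at 1.23 in GABAergic neurons.

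Of the 9 genes, 4 had at least 50 UMIs in tanycytes with both libraries summed (*Stra6*, *Aldh1a1*, *Rdh10* and *Dhrs3*), and the other 5 stayed under this limit. At least 1.5-fold lower in SC300 were 2 of the 4, *Stra6* and *Aldh1a1*, and 0 were at least 1.5-fold higher, with a median log2 ratio of -0.64. Among all 9101 genes past the same limit, 607 (6.67%) were lower and 336 (3.69%) higher by this rule, with a median log2 ratio of -0.07. When libraries were scaled by the median of ratios instead, the counts were 466 lower and 423 higher. With 1 library per group these are counts of genes past a fold, not tested changes. The 9 genes were chosen with earlier results of these data known, so setting them beside all genes is a description only.

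A list of 39 further genes of retinoid handling, of which 35 were analysed, gave a wider view of the pathway. In tanycytes 15 of them had at least 50 UMIs, 3 were at least 1.5-fold lower in SC300, 1 was at least 1.5-fold higher and 11 were neither, with a median log2 ratio of -0.07. Among all 9101 genes past the limit, 6.67% were lower and 3.69% higher. The list was chosen with earlier results of these data known. Its lower genes were *Lrat*, *Rpe65* and *Rarres2*. *Lrat*, the enzyme that esterifies retinol for storage, had at most 3 UMIs in any other gated type of a library, and in tanycytes 59 UMIs (12.1 CPM) in Control and 7 UMIs (1.96 CPM) in SC300. The log2 ratio was -2.62 (interval -4.00 to -1.49), and *Lrat* passed the limit through its Control counts. *Rpe65*, the isomerohydrolase that acts on retinyl esters, stood at 15.2 and 4.49 CPM, from 74 and 16 UMIs, and like *Lrat* passed the limit through its Control counts. Mature oligodendrocytes held more *Rpe65* than tanycytes, at 106 and 29.3 CPM, their markers in the tanycyte gate were also lower in SC300, and their part was not tested. *Rarres2*, the chemerin gene, known to respond to retinoids, stood at 254 and 155 CPM in tanycytes, 1.64-fold lower. Its log2 ratio was -0.76 (interval -0.92 to -0.61) in tanycytes with at least 3 ependymal markers. In those under 3 it was -0.36 (interval -0.84 to 0.10). Stromal cells stood above tanycytes at 1501 and 1170 CPM, as did mural cells at 395 and 305 CPM. Ependymal cells, at 113 and 162 CPM, were higher in SC300.

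The gene that was higher was *Rbp4*, the plasma retinol carrier, at 56.8 CPM in Control and 93.4 CPM in SC300 tanycytes (log2 ratio 0.72, interval 0.48 to 0.95). *Rbp4* was not confined to tanycytes, and stromal cells (11 and 32 cells) stood far higher at 3687 and 1986 CPM. GABAergic neurons were also higher in SC300, at 27.8 and 57.3 CPM. The CPM of glutamatergic neurons, at 42.6 and 31.2, and of astrocytes, at 24.5 and 7.43, was lower in SC300. In astrocytes an *Rbp4* UMI was seen in only 24 of 1103 Control and 21 of 1244 SC300 cells. The 3 highest astrocytes held 56.1% and 49.3% of those UMIs. The share of glutamatergic neurons with an *Rbp4* UMI went the other way, at 29.3% and 40.0%. The dehydrogenases and reductases that passed the limit were all within 1.5-fold. These were *Adh4* at 117 and 132 CPM, *Dhrs7* at 189 and 161 CPM, *Dhrs4* at 41.6 and 56.9 CPM, *Rdh11* at 29.5 and 28.0 CPM and *Rdh14* at 30.5 and 33.9 CPM. The nuclear receptors *Rara* (49.2 and 53.6 CPM), *Rarg* (7.99 and 5.89 CPM), *Rxrb* (47.4 and 41.0 CPM) and *Rxrg* (32.8 and 27.2 CPM) were also within 1.5-fold, as were the endocytic receptor *Lrp2* (18.0 and 26.1 CPM) and the corepressor *Nrip1* (12.7 and 13.2 CPM).

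**Figure D4:**
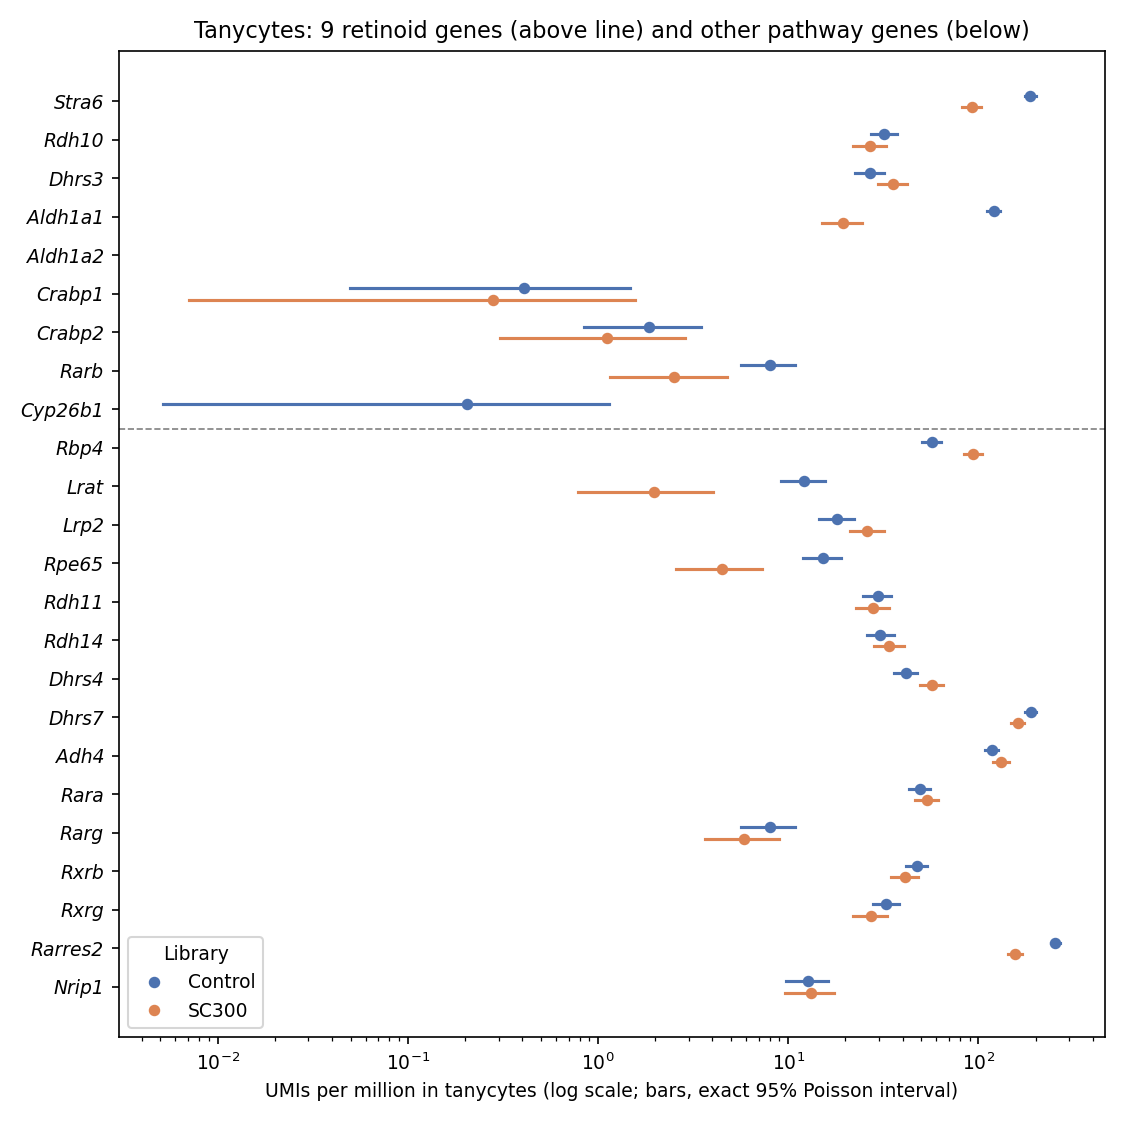
CPM in tanycytes (log axis) for the 9 retinoid genes above the dashed line and the 15 further pathway genes with at least 50 UMIs below it, with exact 95% Poisson intervals. Groups at 0 UMIs are not drawn. *Aldh1a1*, *Stra6*, *Rarb*, *Lrat*, *Rpe65*, *Rarres2* and *Dhrs7* lie apart between the libraries with SC300 lower. *Rbp4* and *Dhrs4* lie apart with SC300 higher, and *Rdh10* and most receptors overlap.

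The difference in *Aldh1a1* and *Stra6* was examined within kinds of tanycytes. *Scn7a* and *Col25a1* are expressed by tanycytes of the median eminence, and 40 Control and 31 SC300 tanycytes carried a UMI of either. In these, *Aldh1a1* stood at 233 and 75.3 CPM and *Stra6* at 330 and 206 CPM. In the other 267 and 158 tanycytes *Aldh1a1* stood at 103 and 6.86 CPM and *Stra6* at 167 and 66.9 CPM. Both genes stood higher in the cells with *Scn7a* or *Col25a1*, and lower in SC300 within each kind. *Dhrs3* had the opposite distribution, with 0 UMIs in Control and 3 UMIs in SC300 cells with *Scn7a* or *Col25a1*, and 30.9 and 42.5 CPM in those without. For *Aldh1a1* in SC300 the order rests on few cells. It had 49 UMIs, seen in 22.6% of the 31 cells with *Scn7a* or *Col25a1*, and 20 UMIs in the 158 without. The split itself rests on 1 UMI of either gene. *Scn7a* differed between the libraries, with a UMI in 6.19% of Control and 12.7% of SC300 tanycytes (6.15 and 13.2 CPM). *Col25a1* was seen in 8.47% of tanycytes in both. Cells with *Scn7a* or *Col25a1* were deeper, with medians of 14644 and 14378 UMIs against 10634 and 12067 in those without. Tanycytes held 19.6% and 14.1% of all *Col25a1* UMIs in Control and SC300. The part of depth, of free RNA and of the *Scn7a* difference in the split was not tested.

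Both differences kept their direction on either side of a limit of 3 ependymal markers. Cells under this limit can still carry ependymal genes, since *Dynlrb2* alone had a UMI in 286 of 307 Control and 181 of 189 SC300 tanycytes. In tanycytes with at least 3 ependymal markers *Aldh1a1* stood at 112 and 20.2 CPM and *Stra6* at 182 and 98.6 CPM. In the 73 Control and 33 SC300 tanycytes with fewer, *Aldh1a1* stood at 169 and 13.6 CPM and *Stra6* at 219 and 47.5 CPM. *Rdh10* was lower in SC300 in the first set, at 32.9 and 25.9 CPM, and higher in the second, at 26.9 and 33.9 CPM, with overlapping intervals of the ratio.

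Within Control, tanycytes with an *Aldh1a1* UMI also carried *Stra6* more often. A *Stra6* UMI was seen in 106 of 118 cells with *Aldh1a1* (89.8%) and 111 of 189 without (58.7%), at 289 and 127 CPM and at median depths of 11399 and 10799 UMIs. *Rarb* stood at 13 and 4.95 CPM in the same sets. *Dhrs3* was lower in the cells with *Aldh1a1*, at 15.7 against 33.6 CPM. In SC300 only 17 tanycytes carried *Aldh1a1*, and these were deeper, with a median of 18917 against 12040 UMIs. Among the SC300 cells without *Aldh1a1*, *Stra6* still stood at 81.5 CPM, below the 127 CPM of the matching Control cells.

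The genes with the pattern most like each member over 28 profiles (14 cell types in each of 2 libraries) were read from Pearson's r of log2(CPM + 10) over 12089 genes. Profiles of 1 library share depth and free RNA, so r is a description. The tanycyte values below were among those from which the genes were picked. For *Aldh1a1* they were *Fmo1* (0.90), *Clec3b* (0.89) and *Serpinf1* (0.88). In tanycytes *Fmo1* stood at 17 CPM in Control and 20.8 CPM in SC300, *Clec3b* at 60.7 and 17.7 CPM, and *Serpinf1* at 55.1 and 0.280 CPM. For *Stra6* they were *Abcg3l3* (0.82), *Ttc23* (0.81) and *Gsta4* (0.77). In tanycytes *Abcg3l3* stood at 19.5 and 14.3 CPM, *Ttc23* at 18.0 and 76.3 CPM, and *Gsta4* at 862 and 570 CPM, so the genes most like *Stra6* over all types did not share one direction between the libraries. For *Rdh10* they were *Tmem150a* (0.92), *RGD1563354* (0.90) and *Kdelr3* (0.89), and for *Dhrs3* *Pltp* (0.93), *Rreb1* (0.93) and *Dtx3l* (0.91).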

How the data were processed

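RNA of hypothalamic cells was measured in 1 Control and 1 SC300 library. The authors counted UMIs per cell barcode against the Ensembl rat transcriptome with Cell Ranger (version 3.0.1 per the file headers) and deposited whole-number counts of UMIs per gene and barcode, with no normalization. The genome build of these files is not given in the sources used here. Gene names were used as the files give them.

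Barcodes with at least 200 detected genes were kept. Cell types were gated by marker lists, each needing at least 3 markers of up to 5 with a UMI, and neurons by at least 2 *Snap25* UMIs. Of the 10 lists, 3 were used with 4 markers, and *Foxj1*, *Pecam1* and *Lhfpl3* were not analysed here. Tanycytes took precedence over the other gates. Doublets were called with Scrublet (70 Control and 73 SC300 barcodes, 7 and 6 of them tanycytes) and kept. UMIs were summed per gene, type and library and scaled to CPM. Groups came from the sample labels. Intervals were Poisson for CPM, Clopper-Pearson for shares and conditional binomial for ratios. Cells are not replicates, and no test was made. A gene was counted as lower or higher at 1.5-fold with at least 50 tanycyte UMIs, both libraries summed. Named were all 9 members, pathway genes past this limit, and the 3 genes most like each member past it, among genes with at least 200 UMIs. *Aldh1a3* and *Cyp26a1*, under the limit, were named after their values were seen. Another gene of the pathway list is not reported here and is in none of its counts. The self-test of intervals and calls used counts simulated from a Poisson model, which the intervals assume. It checked their computation and did not cover UMIs concentrated in few cells. Python 3.11.15, numpy 2.4.6, scipy 1.17.1, pandas 2.3.3 and scanpy 1.11.5 were used.

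The members, lists and gates were chosen with earlier results of these data known. The alternatives tried were other gates, filters, scalings, thresholds and thinning to 2000 UMIs, and 4 more were chosen after seeing the data.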

Additional observations from a re-analysis of the deposited data

Results flagged for a closer look

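*Dhrs3* was higher in SC300 than in Control in tanycytes, with a log2 ratio of 0.41, and lower in 3 other cell types. The log2 ratio was -0.36 in microglia (45.3 and 35.2 CPM), -0.50 in endothelial cells (191 and 135 CPM) and -1.62 in GABAergic neurons (9.63 and 3.13 CPM). The intervals were -0.72 to -0.009 in microglia, -0.71 to -0.28 in endothelial cells and -2.47 to -0.84 in GABAergic neurons. They did not include 0 and lay on the other side from tanycytes (0.04 to 0.77). Those of microglia and tanycytes ended close to 0. *Dhrs3* was also higher in SC300 astrocytes (log2 ratio 0.28, interval 0.13 to 0.42) and mature oligodendrocytes (1.55, interval 0.22 to 3.13, from 6 and 24 UMIs). The difference between cell types was not tested, because each group is 1 library.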

How the results depend on the processing

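The log2 ratio of SC300 over Control in tanycytes kept its sign under all alternatives for *Aldh1a1* (-4.92 to -1.63) and *Stra6* (-2.10 to -0.68). That of *Dhrs3* stayed above 0 (0.40 to 1.78) and that of *Rdh10* ran from -0.83 to 0.26. With 2 of the 5 tanycyte markers the *Aldh1a1* ratio was -2.19, the share with *Aldh1a1* in Control 29.9%, the shares with *Stra6* 48.3% and 30.0%, and the cells gated 11.1% and 7.60%. The log2 margin over other types was then 3.45 for *Aldh1a1* in Control, and 4.67 and 3.90 for *Stra6*. With 4 markers the Control share with *Aldh1a1* was 46.4%, the shares with *Stra6* 84.2% and 59.6%, the *Aldh1a1* margin in Control 4.05 and the cells gated 4.56% and 2.60%. With *Snap25* at 0 UMIs the *Stra6* margin in Control was 4.92 and 6.33% of Control cells were gated.

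Without tanycytes that also reached another gate, 1.21% and 0.548% of cells were left. The ratios were then -4.92 (*Aldh1a1*), -2.10 (*Stra6*), 0.26 (*Rdh10*) and 1.78 (*Dhrs3*), the SC300 share with *Stra6* 29.2%, and the Control margins 4.71 (*Aldh1a1*) and 5.96 (*Stra6*). The SC300 margin of *Aldh1a1* turned to -0.011 (interval -3.06 to 1.85), and 361 and 111 genes were 1.5-fold lower and higher, from fewer cells. With 1000 or more detected genes 8.05% of Control cells were gated. With at most 20% mitochondrial UMIs this was 7.97%, and the *Aldh1a1* margins were 4.39 and 1.90. At 2000 UMIs per cell the shares were 17% and 1.60% (*Aldh1a1*) and 40% and 14.9% (*Stra6*). With every cell weighted alike the ratios were -1.27 (*Stra6*) and 0.83 (*Dhrs3*). The counts of lower and higher genes were 1001 and 637 at 20 or more UMIs, 219 and 106 at 200 or more, and 170 and 107 at 2-fold.

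Of the alternatives chosen after seeing the data, tanycytes whose markers outnumbered those of any other type gave -3.19 (*Aldh1a1*), -1.35 (*Stra6*) and 1.41 (*Dhrs3*). Cells with a *Scn7a* or *Col25a1* UMI gave -1.63 (*Aldh1a1*), -0.68 (*Stra6*) and -0.83 (*Rdh10*), with no value for *Dhrs3*, which had 0 UMIs in Control. Cells without them gave -3.91 (*Aldh1a1*) and -1.32 (*Stra6*). Without the 3 highest cells the *Aldh1a1* ratio was -3.77. The cause of these shifts was not tested. Of 229 values computed, 158 stayed within the counting interval of the reported value, or within 1.5 times of a reported count. No paired analysis was possible because each group is 1 library, and for the same reason no library could be left out.

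The depth limits the sparse genes. *Rarb*, *Crabp1*, *Crabp2*, *Aldh1a2* and *Cyp26b1* had under 50 UMIs in tanycytes, and absence of a UMI in a cell does not show absence of the RNA. The variation between rats is unknown.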

Other observations

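Pathway genes other than the 9 also differed between the libraries outside tanycytes, and both given here were chosen after their values were seen. *Rpe65* was seen in 77.5% of Control and 45.4% of SC300 mature oligodendrocytes, with 827 UMIs (106 CPM) and 313 UMIs (29.3 CPM), whereas in astrocytes it stood at 31.7 and 30.8 CPM. *Rarres2* was higher in SC300 astrocytes, at 56.8 and 103 CPM, and lower in SC300 tanycytes, at 254 and 155 CPM.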
